A study of Rattus norvegicus with 18 samples.

Results

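The genes of 4 rat molecular chaperones were examined across astrocytes exposed to beta-amyloid: Hspd1, Hspe1, Hsp90ab1 and Hspb1. Members were all probe sets of the deposited table whose platform annotation gave 1 of these 4 symbols, which found 7 probe sets among the 1263 that are not array controls, for 4 of 720 genes with a probe set named for them alone. Hspd1 and Hsp90ab1 had 1 probe set each, Hspe1 had 2 and Hspb1 had 3. All 7 passed the filter on low signals that left 1027 probe sets for testing. The arrays were 1-colour short-oligonucleotide arrays hybridised with total RNA of rat astrocytes. The source label was cerebral cortex for controls 1 and 2, which were titled astrocytes, and cortical type I astrocytes for all other arrays. Cells were exposed to the peptide of residues 25 to 35 of beta-amyloid for 12 hours, 1 day, 3 days or 5 days (3 arrays each), and 6 control arrays came from cells kept on laminin and nitrocellulose without the peptide. The labels give no strain, sex or age, and do not say whether arrays came from separate cultures or whether controls were matched to the exposure times, so p-values below reflect only how these arrays scatter, which may be technical.

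Chaperones bind unfolded or newly made proteins and keep them from aggregating. Hspd1 (Hsp60) forms the barrel of the mitochondrial chaperonin, in which imported proteins fold, and Hspe1 (Hsp10) is the lid that closes it. Hsp90ab1 is the constitutive cytosolic form of Hsp90, an abundant chaperone that keeps kinases and steroid receptors ready for activation. Hspb1 (Hsp27, named Hsp25 in mouse) is a small heat shock protein that holds unfolding proteins without ATP and binds actin, and in brain it is found in reactive astrocytes. Many chaperone genes are switched on in stressed cells by heat shock factor 1, which binds alternating inverted copies of the base triplet GAA.

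The deposited signal is a linear intensity that had been scaled to nearly the same average on every array. Signals were set to at least 11.3 and compared as log2 values, and a difference of 1 on this scale is a doubling. Signals of different probe sets depend on the probes, so levels were not compared between genes. The 18 arrays fell into 2 clusters by their overall profile, computed without the 7 member probe sets. Cluster 1 held all 3 arrays at 12 hours, array 3 at 1 day, array 3 at 3 days and controls 1 and 2, and cluster 2 held the other 11. Controls 1 and 2 were titled astrocytes with cerebral cortex as their source, and the source of all 16 others was cortical type I astrocytes. What separates the clusters is not given in the labels. Clusters 1 and 2 held 2 and 4 controls, 1 and 2 arrays at 1 day, and 1 and 2 arrays at 3 days. Differences among these groups were therefore balanced for cluster, while their spread still includes it. Comparisons with 12 hours or 5 days mixed time with cluster. The 12 hour arrays all lay in cluster 1 and the 5 day arrays all in cluster 2.

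Of 16 astrocyte markers 9 were measured, and their summed signal lay between 33699.7 and 40168.7 in cluster 1 and between 24387.7 and 43870.6 in cluster 2. Of these 9 genes, 3 were lower and 1 was higher in cluster 1 without overlap. The other 7, Gfap and Aqp4 among them, were not analysed here. Neuronal markers (10 of 14 measured) summed to 3250.2 to 4617.7 in cluster 1 and 4225.4 to 5934.2 in cluster 2, and oligodendrocyte markers (5 of 8 measured, Sox10 at the floor on at least 9 arrays) to 732.6 to 1067.6 and 811.2 to 1474.5 in clusters 1 and 2. The only microglial marker measured of 10 was Itgam, at 22.3 to 77.0 over all arrays. The only fibroblast and vascular marker measured of 9 was Igf2. Its brightest probe set, X17012mRNA_s_at, lay at 3282.5 to 8743.8 in cluster 1 and 211.2 to 645.3 in cluster 2. E00988mRNA_s_at did not overlap either, at 128.3 to 589.3 and 12.3 to 31.4. All other Igf2 probe sets overlapped, such as M17960_g_at at 319.8 to 528.9 and 318.2 to 486.5. The log2 difference between the 5′ and 3′ control probes of beta-actin was 0.06 to 0.13 in cluster 1 and 0.07 to 0.21 in cluster 2. For those of GAPDH it was -0.31 to 0.07 in cluster 1 and -0.41 to -0.15 in cluster 2. By group the GAPDH difference was -0.15 to -0.09 at 12 hours and -0.35 to -0.21 at 5 days, without overlap, against -0.41 to 0.07 in controls. The part of these values in the results below was not tested, and in bulk RNA fewer cells of a type and less RNA per cell cannot be told apart.

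Hspd1 and Hspe1 lie head to head on rat chromosome 9, on opposite strands, and are known in mammals to share a bidirectional promoter. In the RefSeq promoter table of build GRCr8 their annotated genes overlap by 6 bases, the start sites used by the table lie 289 bases apart, and the 250 bases before each start share 211 bases. The Hspe1 sequence is shown because it also covers most of the 250 bases taken for Hspd1, and the Hspb1 sequence because Hspb1 ran opposite to that pair. Capitals mark GAA and TTC triplets that alternate 2 bases apart (GAANNTTC or TTCNNGAA, searched on both strands, each its own reverse complement, overlapping matches joined).
Hspe1, GRCr8 chr9:64084077-64084326, plus strand: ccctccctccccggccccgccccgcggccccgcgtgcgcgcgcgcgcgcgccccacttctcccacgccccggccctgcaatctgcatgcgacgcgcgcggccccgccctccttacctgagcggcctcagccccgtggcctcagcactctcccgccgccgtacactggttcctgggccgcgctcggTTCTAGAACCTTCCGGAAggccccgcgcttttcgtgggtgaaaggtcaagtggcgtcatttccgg
Hspb1, GRCr8 chr12:26432302-26432551, minus strand: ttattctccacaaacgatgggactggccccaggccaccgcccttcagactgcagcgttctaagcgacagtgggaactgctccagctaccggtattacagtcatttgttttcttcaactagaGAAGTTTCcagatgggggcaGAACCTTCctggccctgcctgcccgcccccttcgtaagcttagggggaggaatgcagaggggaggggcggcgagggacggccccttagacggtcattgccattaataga
The Hspe1 window holds a run of 4 alternating triplets over 18 bases, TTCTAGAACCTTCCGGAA at chr9:64084262-64084279, which lies 65 to 48 bases before the Hspe1 start. The same bases, read on the minus strand, lie 242 to 225 bases before the Hspd1 start of the table. That Hspd1 start is not the outermost one, since the Hspd1 gene span reaches 64084332. The whole Hspd1 window (chr9:64084038-64084287), with the run in it, therefore lies inside the annotated Hspd1 gene. The Hspb1 window holds 2 separate pairs, GAAGTTTC at 129 to 122 and GAACCTTC at 109 to 102 bases before the start. The Hsp90ab1 window (chr9:22930173-22930422, plus strand), which lies partly inside the annotated gene, holds no match to either form. Among 33469 rat promoters of the same length, 7.23% held GAANNTTC, 7.48% held TTCNNGAA, 13.5% held either, and 0.663% (222 promoters) held 3 or more alternating triplets. A match describes letters in a window, not binding.

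Hspd1, the chaperonin barrel subunit, was highest at 12 hours. Its probe set X54793_at had signals of 8240, 8226 and 8704 at 12 hours, 7883, 7451 and 5462 at 1 day, 4970, 5039 and 5375 at 3 days and 5404, 4702 and 4508 at 5 days, against 6123, 6339, 4579, 4371, 4483 and 3996 in controls 1 to 6. All 3 arrays at 12 hours lay above all 6 controls, arrays 1 and 2 at 1 day did too, and the 3 and 5 day arrays lay within the control range. The mean was 8390 ± 272 at 12 hours (SD, n = 3) and 4982 ± 990 in controls (SD, n = 6). The log2 difference was 0.77 ± 0.18 (SE), a 1.71-fold higher signal, with a limma Benjamini-Hochberg adjusted p of 0.0475. At 1 day the difference was 0.48 ± 0.18 (SE) with a limma adjusted p of 0.373, at 3 days 0.06 and at 5 days -0.01, and none of these passed. Hspd1 fell by 0.79 at 5 days relative to 12 hours (limma adjusted p 0.0314), and the arrays did not overlap. With cyclic loess scaling that difference was -0.54 and was not called (limma adjusted p 0.0664). Hspd1 was the only member called against controls at any time in the fit of all 18 arrays. That call stood when control 1, control 2 or array 3 at 1 day was left out (limma adjusted p 0.00915, 0.0425 and 0.043), and was lost when any of the other 15 arrays was, with a difference of 0.72 to 0.79 and an adjusted p of 0.051 to 0.163.

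Hspe1, the lid of the same chaperonin, had its highest group means at 12 hours and 1 day on both probe sets. On rc_AI170613_at the signals were 6591, 5906 and 6185 at 12 hours, 5947, 6263 and 5705 at 1 day, 4668, 5013 and 6488 at 3 days and 4847, 4066 and 3608 at 5 days, against 6784, 3910, 4184, 4024, 3964 and 3491 in controls 1 to 6. Control 1 had the highest value of all 18 arrays, while the other 5 controls lay below every array at 12 hours and 1 day. On rc_AI170613_g_at the signals were 4758, 5023 and 5251 at 12 hours, 3968, 4195 and 4285 at 1 day, 2928, 3158 and 4875 at 3 days and 3310, 2735 and 2538 at 5 days, against 5037, 3184, 2766, 2818, 2445 and 2225 in the controls. Here too control 1 overlapped the 12 hour arrays and the other 5 controls lay below all arrays at 12 hours and 1 day. The 12 hour difference from control was 0.54 ± 0.20 and 0.76 ± 0.23 (SE) on the 2 probe sets, with limma adjusted p-values of 0.114 and 0.0998, so neither passed. At 1 day the differences were 0.48 on both, without passing (limma adjusted p 0.389 and 0.455). Leaving out control 1 alone, both passed at 12 hours, with 0.67 and 0.91 and limma adjusted p-values of 0.0126 and 0.00856, but 20.5% of all tested probe sets then passed too.

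Hsp90ab1, the cytosolic Hsp90, had its narrowest spread at 12 hours and 1 day. On S45392_at the signals were 13586, 13548 and 13278 at 12 hours, 11455, 11188 and 11237 at 1 day, 7753, 8357 and 10665 at 3 days and 10270, 9162 and 9417 at 5 days, against 11798, 11579, 8927, 5856, 10087 and 8847 in controls 1 to 6. The 3 arrays at 12 hours lay above every control, and those at 1 day lay below controls 1 and 2 and above the other 4. The mean was 13471 ± 168 at 12 hours (SD, n = 3) and 9516 ± 2190 in controls (SD, n = 6). The difference of 0.54 ± 0.20 (SE) had a limma adjusted p of 0.114 and did not pass. The differences at 1, 3 and 5 days were 0.28, -0.07 and 0.05, and that between 5 days and 12 hours was -0.49 with a limma adjusted p of 0.159.

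Hspb1, the small heat shock protein, took 2 separate levels that followed the clusters. On rc_AI176658_s_at, its brightest probe set, the signals were 2673, 2938 and 2701 at 12 hours, 12008, 10942 and 3048 at 1 day, 15144, 15763 and 3160 at 3 days and 16121, 13520 and 14624 at 5 days, against 2444, 3678, 16695, 18748, 20586 and 19368 in controls 1 to 6. Controls 1 and 2 and array 3 at 1 and 3 days shared the low level of the 12 hour arrays, and every other array was high. The other 2 probe sets had the same split. M86389cds_s_at ranged over 1273.8 to 1946.4 in cluster 1 and 6790.1 to 11991.2 in cluster 2, and rc_AA998683_g_at over 2151.0 to 3741.9 and 7504.3 to 15029.1 in clusters 1 and 2. The median signal of rc_AI176658_s_at was 2938 in cluster 1 and 15763 in cluster 2. Of all tested probe sets, 14.9% had no overlap between the clusters, and 4.87% to 7.11% had a difference between them at least as large as those of the 3 Hspb1 probe sets, which were 4.40-fold to 5.93-fold lower in cluster 1. Hspd1, Hspe1 and Hsp90ab1 overlapped between the clusters and were 1.31-fold to 1.55-fold higher in cluster 1. Differences at least as large as theirs were common, at 35.0% to 54.2% of all tested probe sets.

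**Figure D1:**
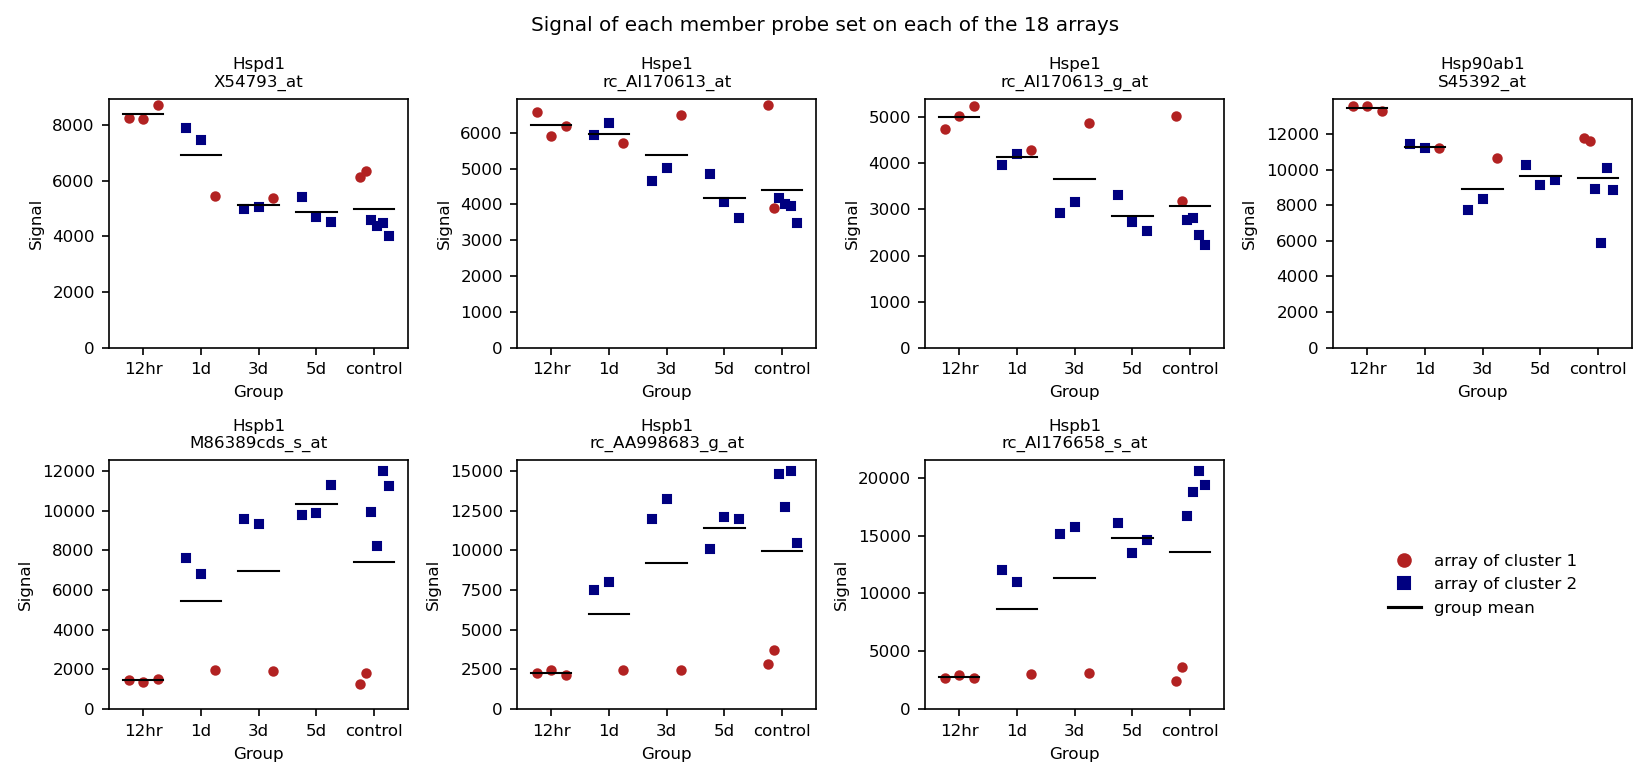
Deposited signal (linear, from 0) of each member probe set on each of the 18 arrays, by group, with bars for group means. Red circles are arrays of cluster 1 and blue squares arrays of cluster 2. The 12 hour arrays are the highest group for Hspd1 and Hsp90ab1, and the Hspb1 panels split by cluster, at 1273.8 to 3741.9 in cluster 1 and 6790.1 to 20585.9 in cluster 2 over the 3 probe sets.

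Against controls the Hspb1 differences at 12 hours were -1.89 ± 0.74, -1.86 ± 0.61 and -1.88 ± 0.72 (SE) on M86389cds_s_at, rc_AA998683_g_at and rc_AI176658_s_at. None passed, with limma adjusted p-values of 0.123, 0.106 and 0.117, and the 6 controls themselves lay at both levels. At 1, 3 and 5 days the differences ran from -0.64 to 0.93 and none passed. Comparing 5 days with 12 hours gave 2.82 and 2.32 with limma adjusted p-values of 0.0446 on the first 2 probe sets, and 2.41 with 0.0559 on the third, with no overlap on any. The 12 hour and 5 day arrays lay in different clusters, so in this comparison time and cluster cannot be told apart.

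In the fit of all arrays 1 of 7 member probe sets was called at 12 hours against control, where 1.66% of all 1027 tested were, and 3 of 7 had arrays that did not overlap the controls, against 15.0% of all tested. Of those 3, Hspd1 and Hsp90ab1 were higher at 12 hours and Hspb1 rc_AA998683_g_at was lower. At 1 day 0 of 7 were called (0.292% of all tested, 120 probe sets at an unadjusted p under 0.05) and 0 did not overlap (1.75% of all tested). At 3 and 5 days 0 of 7 were called, as were 0% of all tested, where limma gave 47 and 94 probe sets at an unadjusted p under 0.05. The moderated F-test over the 5 groups called 0 of 7 against 1.66% of all tested, with the lowest limma adjusted p, 0.0889, for Hspd1. Between 5 days and 12 hours 3 of 7 were called, against 16.5% of all tested. All 7 had arrays that did not overlap in that comparison, where 53.7% of all tested did not overlap, so a lack of overlap there was common. Consecutive times gave 0 calls among members from 12 hours to 1 day (0% of all tested), from 1 to 3 days (0.0974%) and from 3 to 5 days (0.292%), with 150, 86 and 118 of all tested at an unadjusted limma p under 0.05. The order of the group means, with Hspd1 highest at 12 hours and next at 1 day, therefore holds between neighbouring times only as values.

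The median of all tested probe sets was itself shifted at 12 hours, by -0.18 on the log2 scale against controls, and by at most 0.04 in size after quantile normalization, median centring or cyclic loess. Relative to that shift the 12 hour differences were 0.96 for Hspd1, 0.72 and 0.94 for Hspe1, 0.72 for Hsp90ab1 and -1.71 to -1.68 for Hspb1. The directions at 12 hours were the same under the 3 other scalings. Under them Hspd1 had 0.67 to 0.95, and its call was lost with cyclic loess (limma adjusted p 0.0694). The median over the 7 member probe sets was 0.54 at 12 hours, 0.28 at 1 day, 0.04 at 3 days and 0.05 at 5 days against controls, where the medians of all tested were -0.18, -0.05, 0.02 and -0.14. Of all tested probe sets 89.3% had a lower 12 hour difference than Hspd1, and 3.12% to 3.41% a lower one than the Hspb1 probe sets.

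**Figure D2:**
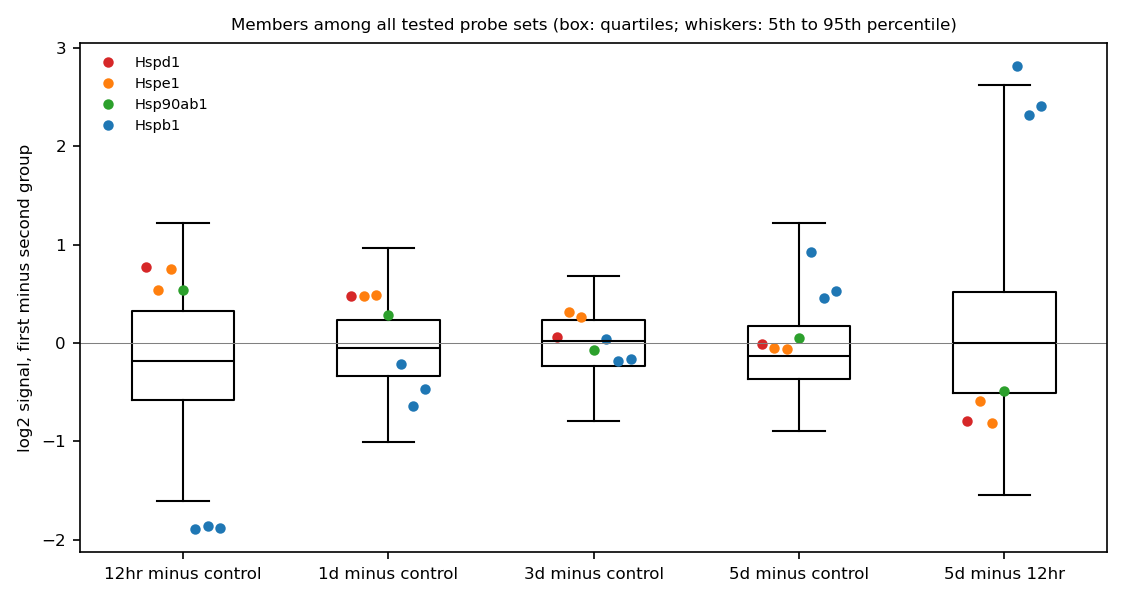
Log2 difference (first minus second group) of all 1027 tested probe sets as boxes (line: median, box: quartiles, whiskers: 5th to 95th percentile) and of the 7 member probe sets as points, for each exposure time minus control and for 5 days minus 12 hours. At 12 hours Hspd1, Hspe1 and Hsp90ab1 lie above the upper quartile and Hspb1, at -1.89 to -1.86, lies below the whisker.

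The results at 12 hours and 1 day turned on which controls were compared. With controls 1 and 2 left out, all 7 member probe sets were called at 12 hours, but so were 31.3% of all tested. Controls 1 and 2 were the only controls in cluster 1. Without them the 12 hour arrays met only controls of cluster 2, and exposure and cluster cannot be told apart. Hspd1 then had 0.95 (limma adjusted p 0.00154), Hspe1 0.67 and 0.97, Hsp90ab1 0.71 and Hspb1 -2.81, -2.53 and -2.76. Control 1 mattered most: without it alone all 7 were called too, against 20.5% of all tested, with Hsp90ab1 at 0.61 and a limma adjusted p of 0.0426. At 1 day, without controls 1 and 2, Hspd1 rose by 0.65 and Hspe1 by 0.61 and 0.70, with limma adjusted p-values of 0.0304, 0.0459 and 0.0466, against 5.74% called of all tested. Array 3 at 1 day then had no control of its own cluster. In that fit 6 of 7 were called between 5 days and 12 hours, all but Hsp90ab1, against 24.0% of all tested.

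With the 2 clusters as a block the member calls were lost. At 12 hours 0 of 7 were called (0.292% of all tested), with 0.67 ± 0.20 (SE) for Hspd1 and a limma adjusted p of 0.127, 0.35 and 0.41 for Hspe1, 0.31 for Hsp90ab1 and -0.28, -0.52 and -0.30 for Hspb1. At 1 day 0 of 7 were called against 2.92% of all tested, and the lowest limma adjusted p was 0.0504, for a difference of -0.64 on Hspb1 rc_AA998683_g_at. Between 5 days and 12 hours 0 of 7 were called (0% of all tested, with 152 at an unadjusted limma p under 0.05). Hspd1 then had -0.63 with a limma adjusted p of 0.275, against -0.79 in the fit without the block, and Hspb1 had 0.40, 0.31 and 0.04. Within cluster 1, where 3 arrays at 12 hours met only controls 1 and 2, Hspd1 had 0.43 with a limma adjusted p of 0.347, Hspe1 0.27 and 0.32, Hsp90ab1 0.20 and Hspb1 -0.05, -0.52 and -0.12. There 0 of 7 and 0% of all tested passed, with 130 of all tested at an unadjusted limma p under 0.05.

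Within cluster 2 the 1 day arrays 1 and 2 met controls 3 to 6, and 5 of 7 member probe sets were called, against 12.0% of all tested. Hspd1 was higher by 0.82 ± 0.16 (SE; limma adjusted p 0.00932). Hspe1 was higher by 0.64 ± 0.17 and 0.68 ± 0.18 (SE), with limma adjusted p-values of 0.0434 and 0.0406. Hspb1 fell by 0.76 and 0.71 on rc_AA998683_g_at and rc_AI176658_s_at, with limma adjusted p-values of 0.0354 and 0.0199. The third Hspb1 probe set had -0.51 (limma adjusted p 0.123) and Hsp90ab1 had 0.45 (limma adjusted p 0.238). Array 3 at 1 day, alone in cluster 1, had -0.19 for Hspd1 against controls 1 and 2, and whether the 1 day difference differs between the clusters was not tested. The clusters were made from these arrays, so p-values of the blocked and within-cluster fits may be too small.

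**Figure D3:**
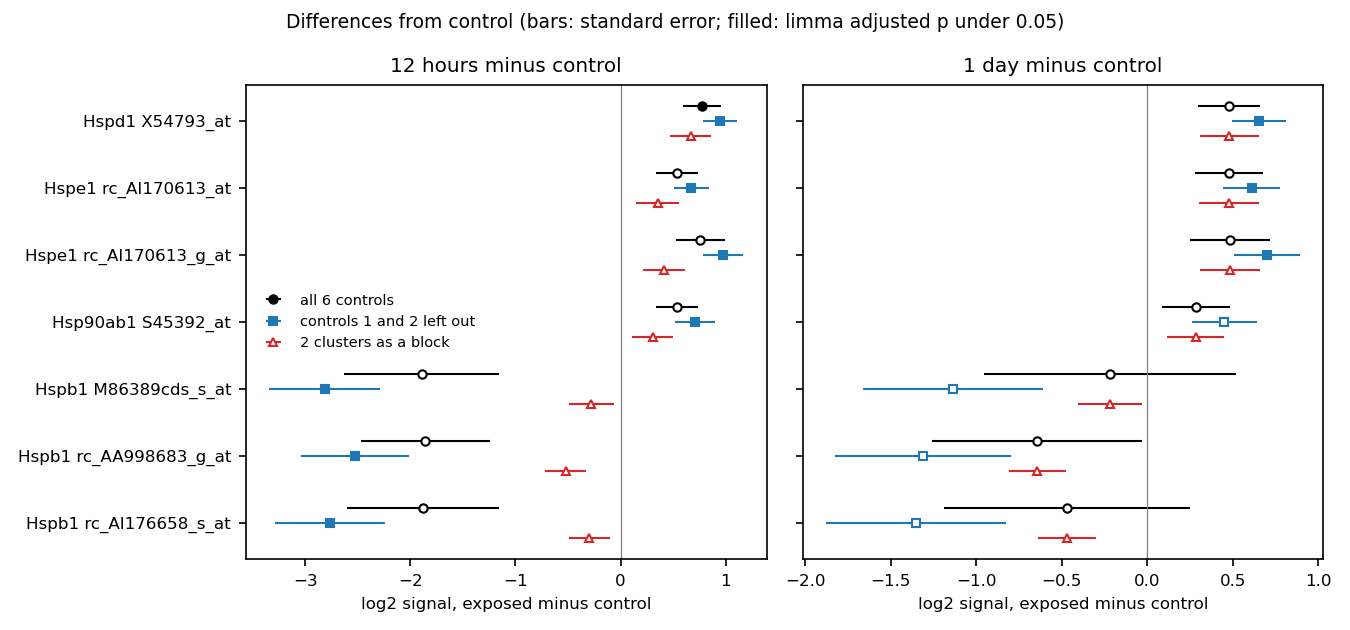
Log2 signal difference from control at 12 hours (left) and 1 day (right) for each member probe set, with standard errors as bars, for all 6 controls (circles), with controls 1 and 2 left out (squares) and with the 2 clusters as a block (triangles). Filled symbols had a limma adjusted p under 0.05. For Hspb1 at 12 hours the difference is -2.81 to -2.53 without controls 1 and 2 and -0.52 to -0.28 with the block, while Hspd1 lies between 0.67 and 0.95 in the 3 fits.

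The chaperonin genes correlated across arrays, but less closely than Hspd1 did with Mif, Mapk6 and Ptgs2 (0.90 to 0.92, described below). Over the 18 arrays the log2 signals of Hspd1 correlated with those of Hspe1 at a Pearson r of 0.77 and 0.83 on its 2 probe sets, and at 0.65 and 0.75 after the mean of each cluster was removed. Hspd1 and Hsp90ab1 had 0.80, and 0.68 after removing the cluster means, while Hspe1 and Hsp90ab1 had 0.63 and 0.72, and 0.38 and 0.40 after it. Hspd1 and Hspb1 had -0.70 to -0.67, and -0.73 to -0.69 after removing the cluster means. The 2 Hspe1 probe sets correlated at 0.95, and the 3 Hspb1 probe sets at 0.97 to 0.99, but the Hspb1 values were 0.50 to 0.71 once cluster means were removed. These values describe 18 arrays that share their scaling and their groups.

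**Figure D4:**
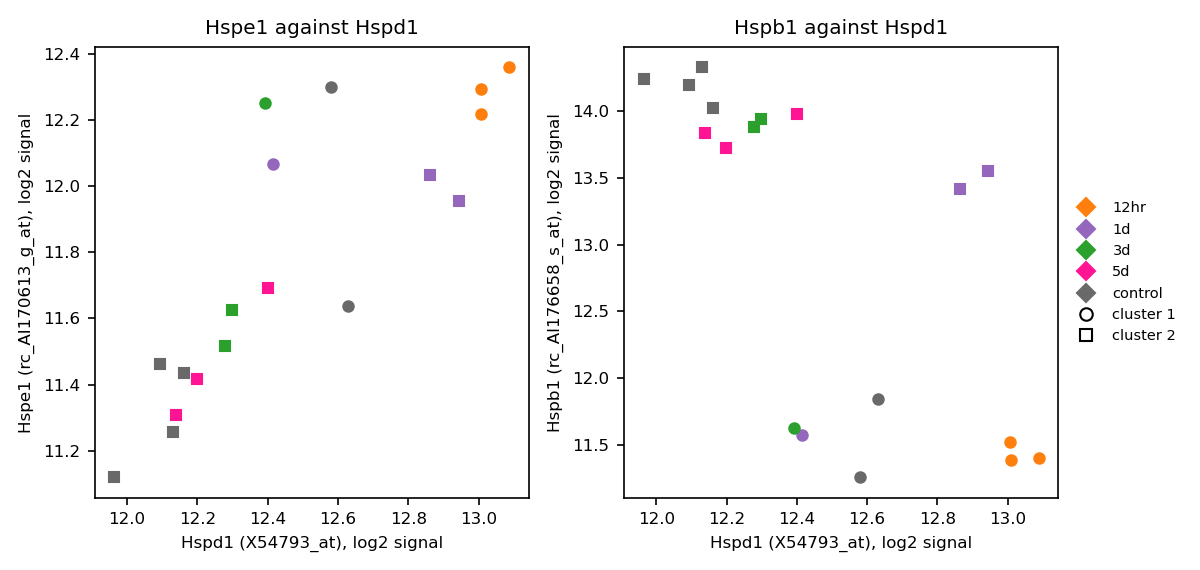
Log2 signals of Hspe1 (left, rc_AI170613_g_at) and Hspb1 (right, rc_AI176658_s_at) against Hspd1 on the 18 arrays, coloured by group, with circles for cluster 1 and squares for cluster 2. Hspe1 climbs with Hspd1 (r = 0.83), and Hspb1 lies at 2 levels by cluster and falls with Hspd1 over all arrays (r = -0.68).

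By correlation over the 18 arrays, the probe sets of other genes most like Hspd1 were those of Mif, a cytokine that restrains macrophage movement (r = 0.92), Mapk6, an atypical MAP kinase (0.90), and Ptgs2, the inducible cyclooxygenase (0.90). For Hspe1 (rc_AI170613_at) they were Atp1b3, a sodium pump subunit (0.88), Grk2, a receptor kinase (0.85), and Nr4a3, an orphan nuclear receptor (0.83). For Hsp90ab1 they were Tgfbr3, the TGF-beta co-receptor betaglycan (0.92), Mapk6 (0.90) and Jak1, a cytokine receptor kinase (0.87). For Hspb1 (rc_AI176658_s_at) they were Prkcb, a protein kinase C (0.99), Cacna2d1, a calcium channel subunit (0.99), and Igfbp3, a binder of insulin-like growth factors (0.98). After cluster means were removed Mif kept 0.88 with Hspd1 and Jak1 0.86 with Hsp90ab1, while the 3 partners of Hspb1 had 0.59 to 0.72.

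Among other heat shock and chaperone genes, 6 of a list of 68 were measured, on 10 probe sets, and 0 of 10 were called in any of the 8 comparisons. Their median difference at 12 hours was -0.01, against -0.18 for all tested. Hspa1a, the inducible Hsp70, ran at 685.6 to 849.5 in cluster 1 and 995.4 to 1761.9 in cluster 2 on rc_AI071965_s_at, without overlap, and its other probe set overlapped. Its 12 hour difference from control was -0.47 and -0.13 on the 2 probe sets. A further 4 probe sets were annotated to both Hspa1a and its near copy Hspa1b, and their signal cannot be assigned to either. None of the 4 was called in any comparison. Of these, Z27118cds_s_at lay at 289.9 to 446.0 in cluster 1 and 531.6 to 1103.9 in cluster 2, without overlap, and the other 3 overlapped between the clusters. On AA848563_s_at the 12 hour arrays, at 296.6 to 387.3, lay below all controls, at 485.8 to 1112.2, with a difference of -0.91 (limma adjusted p 0.117). Hmox1, the stress-induced heme oxygenase, had its highest values at 3 days, with 3142.4 to 4095.7 on J02722cds_at at 3 days against 677.4 to 3049.6 in controls. The differences of the 2 Hmox1 probe sets from control at 3 days were 1.21 and 0.86 (SE 0.40 and 0.34) and did not pass (limma adjusted p 0.877 for both). St13, an Hsp70-interacting cochaperone, had 0.61 and 0.12 at 12 hours, and Canx, a chaperone of the endoplasmic reticulum, had 0.20. Hspb2, a small heat shock protein of muscle, had -0.37 and -0.23, and Hspa1l, an Hsp70 of testis, had -0.88 at signals of 23.0 to 104.3.

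Of 54 known Hsp90 client genes 21 were measured, and 35 of their probe sets were tested. At 12 hours 3 of these 35 were higher than in controls and 0 lower, where 8 of all 1027 tested were higher and 9 lower (1.66% called). These were Jak2, a cytokine receptor kinase (1.28, limma adjusted p 0.0439), Met, the hepatocyte growth factor receptor (1.17, limma adjusted p 0.0467), and Fgfr1, a fibroblast growth factor receptor (0.79, limma adjusted p 0.0477), and the other probe sets of Jak2 and Fgfr1 did not pass. The client calls are given for the fit of all arrays only. Of all tested, 0.292% were called at 12 hours with the clusters as a block, and 0.0974% to 20.5% with 1 array left out. Of the 35 client probe sets 7 fell at 5 days relative to 12 hours and 2 rose, where 16.5% of all tested were called. The falls were led by Met (-1.40), Jak2 (-1.33) and Map3k1, a stress kinase activator (-1.31), while Ntrk2, the BDNF receptor, rose by 2.02 and Fyn, a Src family kinase, by 1.87. The client median was 0.04 at 12 hours and -0.12 between 5 days and 12 hours, where those of all tested were -0.18 and 0.01.

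Among nuclear genes for mitochondrial proteins, the setting in which Hspd1 and Hspe1 work, 7 of 43 were measured on 12 probe sets. None was called against control at any time, and between 5 days and 12 hours 1 of the 12 rose, Maob, the monoamine oxidase of astrocytes (1.88). Of 24 cytoskeleton genes 9 were measured on 23 probe sets, with 0 called against control. Between 5 days and 12 hours probe sets of the neuronal genes Map2 (3.39) and Nefl (2.0) rose and 1 of Nefh fell (-2.97), and other probe sets of all 3 genes did not pass. That Nefh probe set, rc_AA818677_at, lay at 5.4 to 74.2 in cluster 2, which held all 5 day arrays. The size of its fall may therefore depend on the floor of 11.3. Of 26 stress kinase genes 7 were measured on 17 probe sets, with 0 called against control, and 1 of the 17, of Map3k1, fell between 5 days and 12 hours. Beside the calls of these lists between 5 days and 12 hours, 16.5% of all tested were called. In that comparison time and cluster cannot be told apart. The neuronal markers summed to 3250.2 to 3425.9 at 12 hours, against 3475.3 to 5094.1 in controls, and the astrocyte markers to 38834.7 to 40168.7 at 12 hours, against 24387.7 to 38725.3 in controls, in both cases without overlap. At 5 days the astrocyte sum, 42519.2 to 43870.6, lay above all controls too, and the neuronal sum, 4225.4 to 5273.2, overlapped them. Such sums of raw signals rest mostly on bright genes. Over all arrays Vim had 8770.4 to 18831.2, Glul 4981.2 to 12630.1 and the neuronal Eno2 2122.9 to 3833.6. Cluster 1 held all 12 hour arrays. On their brightest probe sets Slc1a3, Mt3 and S100b lay lower there and Gja1 higher, without overlap. The part of the marker sums in the member differences was not tested.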

How the data were processed

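Rat astrocyte RNA was measured on 18 1-colour short-oligonucleotide arrays. The authors deposited 1 table of intensity values on a linear scale, with 1322 probe sets. Which software made it, and to what target, is not given in the sources used here. Its 2% trimmed mean was 502.067 to 502.632 on all arrays, which shows that arrays had been scaled to a common level before deposit, and no further scaling was applied. Detection calls were not used here, and the number of arrays limits the precision. No pair of arrays shared more than 0.681% of its values.

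The 59 control probe sets were left out. Values under the 10th percentile (11.3) were set to it, log2 was taken, and probe sets above the 30th percentile (44.9) on at least 3 arrays were kept, which left 1027. Symbols came from the platform annotation: of 1263 probe sets 1137 had 1 symbol, 8 several and 118 none, and only those with 1 were named. Gene identifiers linked 1132 single-symbol probe sets to the reference table, which changed 0 symbols. Each probe set was kept apart.

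A single limma 3.58.1 model (lmFit, eBayes, R 4.3.3) covered all 5 groups, leaving 13 residual degrees of freedom, and the residual SD had a median of 0.49. Tests were two-sided, with Benjamini-Hochberg adjustment over all 1027 probe sets and a threshold of 0.05. On simulated data of 12 hours against control the fit called 12%, 54%, 82% and 98% of probe sets changed by 0.5, 1, 2 and 3 on the log2 scale, and 0.967% of unchanged ones. The simulation held no array clusters. The 2 array clusters came from an average-linkage tree of Pearson distances that left out the member probe sets, and 0 arrays moved when those were included.

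The members, gene lists, tests and alternatives were chosen with earlier results of these data known. All member probe sets and all measured genes of the chaperone list are named, with up to 3 called genes of each other list and the 3 most correlated probe sets of each member's brightest probe set. Alternatives covered scaling, floor, filter, eBayes options, the clusters, the controls, replicate numbers as a block, averaged probe sets and each array left out. Leaving out array 3 of 1 day and of 3 days together was added after seeing the data.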

Additional observations from a re-analysis of the deposited data

Results flagged for a closer look

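In 1 of 7 control groups checked, that of Hspe1 on rc_AI170613_at, a single array stood far from the others. Control 1 had 6784 where controls 2 to 6 had 3491 to 4184, and its gap to the nearest control in log2 signal was 0.728 of the range over the 6 controls, above the 95% limit of Dixon's test for 6 values. Chance gives such a gap in about 1 in 20 groups. The other Hspe1 probe set, rc_AI170613_g_at, had 5037 in control 1 and 2225 to 3184 in the other 5 without passing that limit.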

How the results depend on the processing

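The number of member probe sets called at 12 hours against control was 1. It was 0 with cyclic loess, 0 with the clusters as a block, 0 within cluster 1, 0 with the replicate block, 7 without controls 1 and 2, and 0 to 7 with 1 array left out (0.0974% to 20.5% of all tested, 7 without control 1, 1 without control 2 or array 3 at 1 day, 0 otherwise). At 1 day it was 0, but 5 within cluster 2 and 3 without controls 1 and 2. Between 5 days and 12 hours it was 3, and 1 without the filter (7.76% of all tested), 2 with cyclic loess (13.8%) or the replicate block (14.8%), 4 with median centring (16.6%), the floor at the 20th percentile (16.8%) or eBayes with trend and robust (18.2%), where Hspe1 rc_AI170613_g_at was the added call, 0 with the clusters as a block, 6 without controls 1 and 2 (24.0%), 5 without array 3 at 1 and 3 days (23.5%, an alternative chosen after seeing the data), and 0 to 6 with 1 array left out (0.0974% to 20.9%). There it was 0 without any of the 6 arrays compared, 1 without array 1 or 2 at 1 day, 5 without array 3 at 3 days (20.9%) and 6 without control 1 (20.5%). By the F-test it was 0, and 6 without controls 1 and 2 (21.3% of all tested), 1 without array 3 at 1 and 3 days (8.76%), and 0 to 3 with 1 array left out (0.0974% to 11.1%), control 1, control 2 or array 3 at 1 day being those that gave a call. The count was 0 in the other comparisons under all alternatives run. The cause of these changes was not tested. Of all tested probe sets, the calls at 12 hours were 17, and 9 with quantile normalization, 4 with cyclic loess, 27 without the filter, 3 with the replicate block and 30 without array 3 at 1 and 3 days, and those between 5 days and 12 hours were 169, and 94 with quantile normalization and 98 without the filter. At 12 hours 8 were higher and 9 lower, and 7 and 2 with quantile normalization, 9 and 5 with median centring and 3 and 1 with cyclic loess. Between 5 days and 12 hours 92 were higher and 77 lower, and 70 and 100 with median centring.

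Whether replicate numbers pair the arrays is not given in the labels, and the main fit used no pairing. Of 10 pairs of groups, 1 (3 days and 1 day, r of 0.390, 0.429 and 0.683) had all 3 same-numbered correlations of deviations over 0.1. At both of these times array 3 lay alone in cluster 1, so pairing and cluster cannot be told apart there. With the replicate block Hspd1 had 0.577 at 12 hours without passing, Hspb1 rc_AA998683_g_at lost its call between 5 days and 12 hours at 2.316, and of all tested 61 were called at 5 days, where 0 were without it.

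Between consecutive times 17 member differences changed sign under other settings and 9 with 1 array left out, none of them called in those fits, nor in the fit of all arrays. With the clusters as a block, Hspb1 at 1 day relative to 12 hours was -0.119 on rc_AA998683_g_at and -0.17 on rc_AI176658_s_at, against 1.217 and 1.413 in the fit of all arrays. None changed sign between 5 days and 12 hours. Against control the differences that changed sign were those of 1, 3 and 5 days, none of them called in the fit of all arrays, and the cause was not tested. With the replicate block, 3 days gave -0.134 for Hspd1, 0.429 for Hspb1 rc_AA998683_g_at and 0.777 for rc_AI176658_s_at, 1 day gave 0.719 for M86389cds_s_at and 0.472 for rc_AI176658_s_at, and 5 days -0.154 for Hsp90ab1. Within cluster 1, 1 day gave -0.19 for Hspd1, -0.057 for Hsp90ab1, and 0.365 and 0.024 for Hspb1 M86389cds_s_at and rc_AI176658_s_at, and 3 days -0.213 for Hspd1 and 0.076 for rc_AI176658_s_at. Within cluster 2, 5 days gave 0.158 for Hspd1, 0.085 and 0.156 for Hspe1, and -0.21 and -0.353 for rc_AA998683_g_at and rc_AI176658_s_at, the same values as without controls 1 and 2, and 3 days -0.116 for M86389cds_s_at. Without controls 1 and 2, 3 days also gave 0.097 for Hsp90ab1 and -0.876 for M86389cds_s_at. With the clusters as a block, 5 days gave 0.04 for Hspd1, 0.045 and 0.11 for Hspe1, and -0.211 and -0.262 for rc_AA998683_g_at and rc_AI176658_s_at. Scaling gave Hspd1 -0.004 at 3 days and 0.015 at 5 days (quantile), 0.029 (median) and 0.127 (cyclic loess) at 5 days, Hspe1 0.088 and 0.066 at 5 days (cyclic loess), and rc_AI176658_s_at 0.12 at 3 days (quantile). Without array 3 at 1 and 3 days, 1 day gave 0.413 and 0.169 for M86389cds_s_at and rc_AI176658_s_at, and 3 days 0.605 and 0.6 for rc_AA998683_g_at and rc_AI176658_s_at.

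With 1 array left out, Hspd1 ranged over 0.715 to 0.848 at 12 hours, -0.865 to -0.735 between 5 days and 12 hours and -0.091 to 0.06 at 5 days. Hspe1 ranged over -0.161 to 0.084 and -0.171 to 0.092 at 5 days, and Hsp90ab1 over -0.205 to 0.025 at 3 days and -0.083 to 0.12 at 5 days. Hspb1 M86389cds_s_at ranged over -0.634 to 0.413 at 1 day and -0.374 to 0.804 at 3 days, rc_AA998683_g_at over -0.608 to 0.605 at 3 days, and rc_AI176658_s_at over -0.88 to 0.169 at 1 day and -0.575 to 0.6 at 3 days. The Hspb1 calls between 5 days and 12 hours were lost without any of the 6 arrays compared or array 1 or 2 at 1 day (limma adjusted p 0.0518 to 0.118), at 2.752 to 2.857 and 2.271 to 2.399, and the Hspd1 call there without any of the 6 (0.0564 to 0.107). Few arrays, no detection calls and the clusters limit all these results.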
